A study of Mus musculus with 6 samples.

Results

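The RNA-binding proteins described here are the regulators known for setting neuronal patterns of alternative splicing: the polypyrimidine tract binding proteins Ptbp1, Ptbp2 and Ptbp3, the Fox proteins Rbfox1, Rbfox2 and Rbfox3, the Nova proteins Nova1 and Nova2, and the neuronal splicing activator Srrm4. They were chosen by gene name, and every row whose RefSeq transcript maps to one of the 9 genes was taken, which gave 19 of the 32025 rows of the table and 17 rows of distinct values. All 9 genes had at least 1 row. Where a gene had several rows, the one with the highest mean stood for it. Values on the arrays are given in the order of replicates 1, 2 and 3.

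The cells were E14.5 neural stem cells of CD-1 albino mice, grown as neurospheres (free-floating balls of dividing stem cells and their progeny) under conditions that keep them proliferating. By nucleofection, an electrical transfection method, 3 biological replicates received a mimic of the microRNA miR-128 and 3 received the control RNA miR-Control. Total RNA was taken after 72 h and hybridised to 1 exon array per replicate. According to the series design these cells do not normally express miR-128, and the comparison asks which genes and transcript isoforms differ once it is present. What the 3 replicates of a group had apart (animals, cultures or days) is not given in the sources used here, so the tests measure the spread between these RNA samples.

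During neuronal differentiation Ptbp1, a repressor of neuronal exons in stem cells and most tissues, gives way to its neuronal paralogue Ptbp2, because Ptbp1 keeps an exon of the Ptbp2 transcript skipped and the skipped form is degraded. Srrm4 (nSR100), the Fox proteins and the Nova proteins then promote inclusion of many neuronal exons, and the third Fox protein, Rbfox3, is the NeuN antigen used to mark mature neurons. MicroRNAs are known to take part in this switch by acting on Ptbp1 transcripts, which is the setting in which a brain microRNA such as miR-128 is looked at here.

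The mature microRNA is shown because it is the agent that differs between the groups. In the RefSeq entries of build GRCm38.p6 both mouse loci, Mir128-1 at chr1:128202404-128202424 on the plus strand and Mir128-2 at chr9:112118644-112118664 on the minus strand, give the same 3p arm, while their 5p arms differ outside a shared seed. The seed, bases 2 to 8, is in capitals. The labels name no arm of the mimic. Among the 1679 mature mouse names in the table no other name had the 3p seed. Transcript sequences were not used here, so no target sites were searched in the 9 genes.
mmu-miR-128-3p: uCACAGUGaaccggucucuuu
mmu-miR-128-1-5p: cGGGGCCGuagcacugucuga
mmu-miR-128-2-5p: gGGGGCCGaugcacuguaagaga

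None of the 9 genes was called by the test over all rows. That test called no row of the table at all, so it does not show that the 9 were unchanged. The log2 fold changes (miR-128 over miR-Control) of the representative rows ran from -0.19 for Rbfox2 to 0.31 for Nova1, 4 of them positive and 5 negative. Their median was -0.015, beside a median of 0.019 over all 20263 named genes. The median absolute log2 fold change of the named genes was 0.094, and 92.3% of them had one no larger than that of Nova1. limma's moderated test with Benjamini-Hochberg adjustment over all 32025 rows called 0 of the 9 at an adjusted p of 0.05, against a background of 0% of all rows, and the lowest adjusted p among them was 0.745. At an unadjusted p under 0.05 it had 0 of the 9, against 7.15% of all rows. With standard errors of 0.10 to 0.15, the 95% intervals of the 9 fold changes stayed between 0.75-fold and 1.57-fold.

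**Figure D1:**
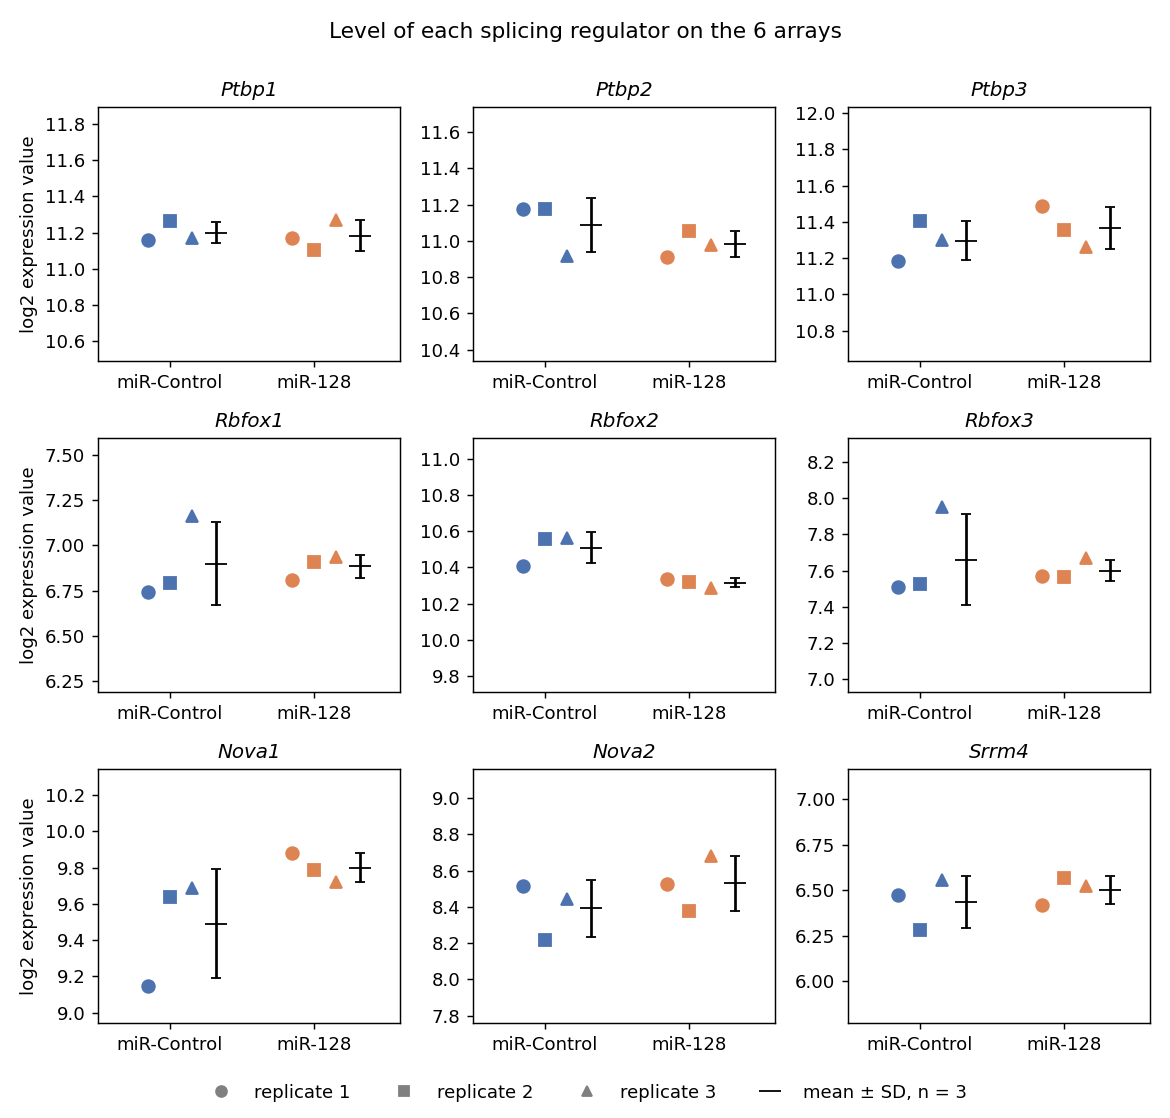
Log2 expression values of the 9 genes on each array (y axis, the same span of log2 units in every panel), miR-Control in blue and miR-128 in orange, with the symbol giving the replicate number and the bar the mean ± SD of 3 arrays. In Rbfox2 the 3 miR-128 arrays (10.29 to 10.34) lie below the 3 controls (10.41 to 10.56), in Nova1 they lie above them, and in the other 7 genes the groups overlap.

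Before the single genes, 1 array needs to be described, because several values turn on it. On miR-Control replicate 3 the values were compressed: rows of low level were high there and rows of high level were low. Its interquartile range was 2.87, against 2.98 to 3.22 on the other 5 arrays. In the second quartile of levels (control means of 6.05 to 7.45) its median row lay 0.12 above the mean of the other arrays, and it held the highest value in 45.6% of rows. In the top quartile (control means from 9.14) its median row differed from them by -0.12, and it held the highest value in 7.18% of rows. Among the 9 genes it held the highest value in Rbfox1, Rbfox2 and Rbfox3. miR-Control replicate 2 departed the other way and had the widest interquartile range, 3.22. In the second quartile of levels its median row differed from the other arrays by -0.13, and it held the lowest value in 44.1% of rows. In the top quartile its median row lay 0.10 above them, and it held the highest value in 33.0% of rows. Among the 9 genes replicate 2 was highest in Ptbp2 and lowest in Nova2 and Srrm4.

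The 3 PTB genes were all at a high level, in the control cells and in the cells with miR-128. Probe groups differ in how strongly they bind, so the levels are placed within the table and are not ranked between genes. The control means of Ptbp1, Ptbp2 and Ptbp3 exceeded those of 96.6%, 96.0% and 97.0% of all rows.

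Ptbp1, the repressor that holds neuronal exons out in stem cells, read 11.16, 11.26 and 11.17 (log2) on the miR-Control arrays against 11.17, 11.10 and 11.27 on the miR-128 arrays. The lowest and the highest of the 6 values were both miR-128 arrays, so the groups overlap fully. The log2 fold change was -0.015 (SE 0.10, 95% interval -0.25 to 0.21, adjusted p = 0.996 in limma), and the interval reaches from 0.84-fold to 1.16-fold. Its sign turned to 0.018 without miR-Control replicate 2 and to 0.024 without miR-128 replicate 2. Ptbp1 was also one of the flattest genes of the table: its values had a root mean square of 0.059 around their mean over the 6 arrays, and 4.61% of named genes had less. A second row of the gene, NM_008956, gave -0.029 (adjusted p = 0.989).

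Ptbp2, the neuronal paralogue that follows Ptbp1 in differentiating neurons, read 11.17, 11.18 and 10.92 on the control arrays against 10.91, 11.06 and 10.98 on the miR-128 arrays. miR-Control replicates 1 and 2 were the 2 highest arrays, and miR-Control replicate 3 lay among the miR-128 arrays. The group means were 11.09 ± 0.15 (controls) and 10.98 ± 0.072 (miR-128; SD, n = 3), which differ by a log2 fold change of -0.11 (SE 0.11, 95% interval -0.36 to 0.15, adjusted p = 0.943). Without miR-Control replicate 3 it was -0.19 (adjusted p = 0.436).

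Ptbp3 (formerly Rod1), the third paralogue, read 11.19, 11.41 and 11.30 on the control arrays against 11.49, 11.35 and 11.26 on the miR-128 arrays. Its groups overlap, with the highest value on miR-128 replicate 1 and the lowest on miR-Control replicate 1. The log2 fold change was 0.069 (SE 0.11, adjusted p = 0.973), and its further row NM_144904 had 0.091 (adjusted p = 0.957). Without miR-128 replicate 1 the difference was 0.0095.

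The balance of the paralogues on each array was described next, as the difference of their log2 values. A handover from Ptbp1 to Ptbp2 could raise Ptbp2 minus Ptbp1 but need not, since these rows do not resolve exon skipping. Relative to its mean in the controls, Ptbp2 minus Ptbp1 was 0.12, 0.022 and -0.14 on the control arrays against -0.15, 0.061 and -0.18 on the miR-128 arrays. The mean with miR-128 was -0.092 ± 0.13 (SD, n = 3) and the SD of the controls was 0.13, so the shift was smaller than the spread of either group. This depends on single arrays: leaving out miR-128 replicate 2 gave a shift of -0.17, and leaving out miR-Control replicate 3 gave -0.16, both larger than the spread that remained (0.095 and 0.11). When miR-Control replicate 1 was dropped the shift was -0.032, and when miR-128 replicate 3 was dropped it was -0.045. Ptbp3 minus Ptbp1 was -0.074, 0.043 and 0.031 on the control arrays against 0.21, 0.15 and -0.11 on the miR-128 arrays. Here too the groups overlap, and the mean with miR-128 was 0.085 ± 0.17 (SD, n = 3). Dropping miR-128 replicate 1 left a mean shift of 0.020 and dropping miR-128 replicate 3 one of 0.18, with 0.048 once miR-Control replicate 1 was omitted and 0.052 for the omission of miR-128 replicate 2. Of these shifts only that of 0.18 was larger than the spread that remained (0.055). These differences show unequal change and no ratio of transcript numbers, and they have no test.

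Among the Fox genes, which bind GCAUG-type motifs and act on neuronal and muscle exons, Rbfox2 was at a high level and Rbfox1 and Rbfox3 were near the middle of the table or below it. The control means exceeded those of 92.2% of all rows for Rbfox2, 53.4% for Rbfox3 and 40.3% for Rbfox1.

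Rbfox2, the Fox gene also active outside neurons, read 10.41, 10.56 and 10.56 on the control arrays against 10.34, 10.32 and 10.29 on the miR-128 arrays. Each miR-128 array was lower than each control array, with the closest pair at 10.34 and 10.41. The group means were 10.51 ± 0.086 (controls) and 10.32 ± 0.025 (miR-128; SD, n = 3), the log2 fold change was -0.19 (SE 0.10, 95% interval -0.42 to 0.032), and the adjusted p in limma was 0.760. The interval reaches from 0.75-fold to 1.02-fold. The level of miR-Control replicate 3 in Rbfox2 was 0.18 above the other arrays, opposite in sign to the median row of its level quartile. Without that array the log2 fold change was -0.17 (adjusted p = 0.475), and over all replicates left out in turn it ran from -0.24 to -0.17.

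The 6 rows of Rbfox2 hold 4 sets of distinct values, which are nearly the same, and are not counted as separate evidence. All 6 had non-overlapping groups, and the log2 fold changes of the 4 distinct rows ran from -0.21 (NM_001110829, adjusted p = 0.728) to -0.19. On no array were the distinct rows more than 0.054 apart.

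Rbfox1, the Fox gene of neurons, heart and muscle, read 6.74, 6.79 and 7.16 on the control arrays against 6.81, 6.91 and 6.93 on the miR-128 arrays. Rbfox3, whose protein is NeuN, read 7.51, 7.52 and 7.95 on the control arrays against 7.57, 7.56 and 7.67 on the miR-128 arrays. Both genes show 1 picture: miR-Control replicate 3 was highest and the other 2 controls lowest, with the 3 miR-128 arrays between them. The log2 fold changes were -0.015 (SE 0.13, adjusted p = 0.997) for Rbfox1 and -0.062 (SE 0.14, adjusted p = 0.985) for Rbfox3.

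Without miR-Control replicate 3 the sign of both turned, to 0.12 for Rbfox1 (adjusted p = 0.593) and 0.084 for Rbfox3 (adjusted p = 0.692). In both genes the remaining 2 controls then lay below all 3 miR-128 arrays, as they did in 21.5% of all rows. That array stood 0.32 above the mean of the others in Rbfox1 and 0.39 above it in Rbfox3. Its part in these values beyond the sign turn was not tested. The further rows moved alike: the second row of Rbfox1 had -0.055 and the other rows of Rbfox3 had -0.025 and -0.044.

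**Figure D2:**
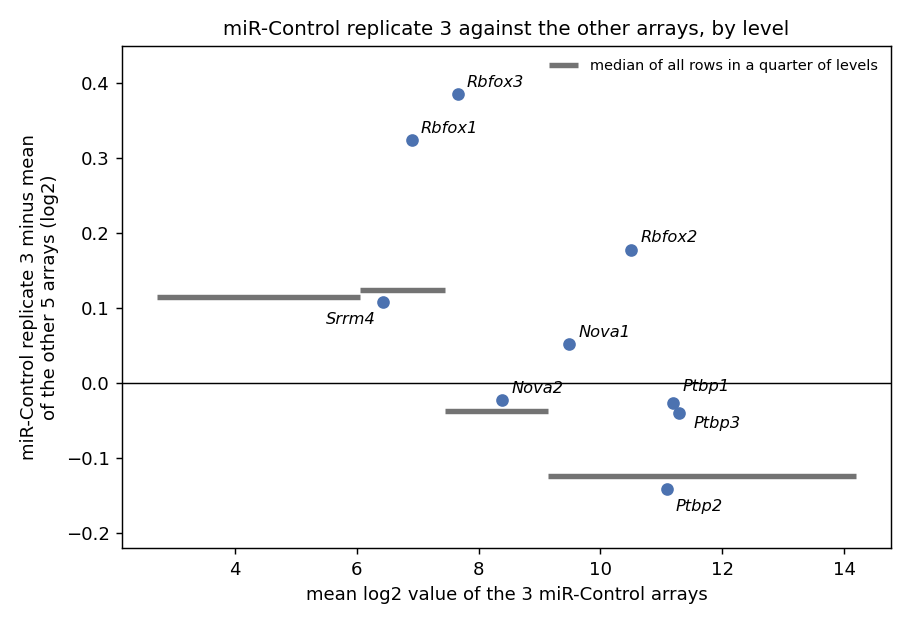
Difference of miR-Control replicate 3 from the mean of the other 5 arrays (y axis, log2) against the mean log2 value of the 3 controls (x axis) for the representative row of each of the 9 genes; grey bars give the median of all rows in each quartile of levels. Rbfox3 (0.39) and Rbfox1 (0.32) lie above the bars of their quartiles, and Ptbp2 (-0.14) lies next to the bar of the top quartile (-0.12). The other genes of the top quartile lie above that bar: Ptbp3 (-0.040), Ptbp1 (-0.027), Nova1 (0.053) and Rbfox2 (0.18).

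The Nova proteins, which bind YCAY clusters in neuronal transcripts, are known for synaptic exons. Nova1 read 9.14, 9.64 and 9.69 on the control arrays against 9.88, 9.79 and 9.72 on the miR-128 arrays. Each miR-128 array was higher than each control array, but miR-Control replicate 3 and miR-128 replicate 3 were close, and miR-Control replicate 1 was far below the rest. The group means were 9.49 ± 0.30 (controls) and 9.80 ± 0.080 (miR-128; SD, n = 3), the log2 fold change was 0.31 (SE 0.15, 95% interval -0.039 to 0.66), and the adjusted p in limma was 0.745. Without miR-Control replicate 1 the log2 fold change was 0.14 (adjusted p = 0.888), and without miR-Control replicate 3 it was 0.41 (adjusted p = 0.377). Under limma's array weights, which gave miR-Control replicate 1 a weight of 2.03 and miR-Control replicate 3 a weight of 0.28, it was 0.51 (adjusted p = 0.163).

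Nova2, the paralogue of cortical neurons, read 8.52, 8.22 and 8.44 on the control arrays against 8.53, 8.38 and 8.68 on the miR-128 arrays. The groups overlap, and the log2 fold change was 0.14 (SE 0.13, 95% interval -0.15 to 0.42, adjusted p = 0.929). With 1 array left out in turn it ran from 0.050 (without miR-Control replicate 2) to 0.21 (without miR-128 replicate 2). The control means of Nova1 and Nova2 exceeded those of 80.3% and 63.7% of all rows.

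Groups did not overlap in 1 of the 9 genes in the direction higher with miR-128 (Nova1), against 6.98% of all rows, and in 1 of the 9 in the direction lower (Rbfox2), against 4.87% of all rows. With 9 genes these counts are near the background shares.

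Srrm4, a serine and arginine rich activator found mainly in neurons and sensory hair cells, was at a low level. Its values were 6.47, 6.28 and 6.56 on the control arrays against 6.42, 6.56 and 6.52 on the miR-128 arrays, and the groups overlap. The control mean of 6.44 ± 0.14 (SD, n = 3) exceeded those of 31.8% of all rows. The log2 fold change was 0.065 (SE 0.11, 95% interval -0.19 to 0.32, adjusted p = 0.979), and it was -0.014 without miR-Control replicate 2. No detection call was used, so whether rows at the levels of Srrm4 and Rbfox1 stand above background is unknown.

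**Figure D3:**
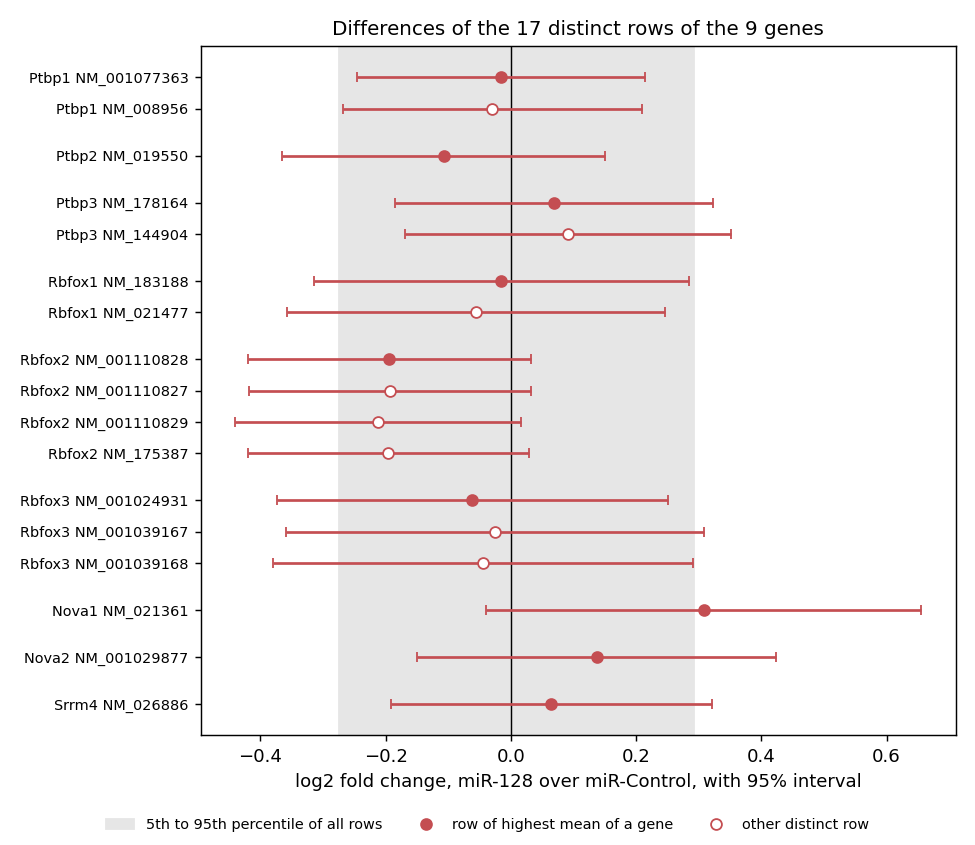
Log2 fold change with its 95% interval (x axis) for the 17 distinct rows of the 9 genes (y axis, gene and RefSeq transcript); filled points are the row of highest mean of each gene, and the grey band spans the 5th to the 95th percentile of all rows (-0.27 to 0.29). Every interval includes 0, and the point of Nova1 (0.31) is the only one outside the band.

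The exon arrays were summarised by transcript, so the alternative exons of these genes could not be examined one by one, but rows of 1 gene could be set against each other. For 5 of the 9 genes (Ptbp1, Ptbp3 and the 3 Fox genes) there were 2 or more distinct rows, 13 in all. The rows moved together in every case: once the gene's average over its rows was subtracted array by array, the log2 fold change of each row stayed between -0.020 and 0.020. limma called 0 of these 13 rows after adjustment over the 7309 such rows of the table, against a background of 0%, and 0 of the 13 had an unadjusted p under 0.05, against 4.5% of such rows. In a gene of 2 rows the subtraction makes them mirror images, so the 13 are not separate tests. The probe grouping is not given, and rows that share probes would move together in any case, so isoforms are not resolved. The 2 rows of Rbfox1 lay up to 0.81 apart in level on an array, yet their log2 fold changes were -0.015 and -0.055. A difference in level between rows can come from their probes.

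Corepressors and partners of PTB, such as the Raver proteins and Matrin 3, gave 4 positive and 7 negative log2 fold changes among 11 measured genes of 12 listed, with 0 called, 2 at an unadjusted p under 0.05 and a median of -0.030. Over all rows 0% were called and 7.15% had such a p, which is the background for this and the next 3 lists. The 2 of smallest p were the heterogeneous nuclear ribonucleoproteins Pcbp1 and Hnrnpk, which bind C-rich RNA. Hnrnpk read 9.84, 9.96 and 9.73 on the control arrays against 9.43, 9.56 and 9.70 on the miR-128 arrays, a log2 fold change of -0.28 (SE 0.12, adjusted p = 0.678) with no overlap. Pcbp1 was at -0.53 (SE 0.21, adjusted p = 0.651), with overlapping groups.

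Other splicing factors with tissue-regulated activity (Celf, Mbnl, Elavl, Khdrbs, Qk and others) had 14 positive and 12 negative values among 26 genes, 0 called and 1 at an unadjusted p under 0.05, with a median of 0.016. Celf4, a neuronal CUG-binding protein, read 7.88, 7.98 and 8.10 on the control arrays against 7.63, 7.63 and 7.67 on the miR-128 arrays, a log2 fold change of -0.35 (SE 0.10, adjusted p = 0.497) with no overlap. Its relative Celf3 was at 0.22 (SE 0.11, adjusted p = 0.749), so the Celf genes of smallest p differed in sign.

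Genes reported elsewhere to carry exons under the control of PTB, Srrm4, Fox or Nova proteins had 17 positive and 18 negative values among 35, 0 called and 3 at an unadjusted p under 0.05, with a median of -0.0058. These are total transcript values and say nothing of the exons. Nrxn3, a presynaptic adhesion protein, was among those of smallest p. It read 7.59, 7.60 and 7.57 on the control arrays against 8.26, 7.95 and 8.06 on the miR-128 arrays, a log2 fold change of 0.50 (SE 0.11, adjusted p = 0.380). Each miR-128 array was higher than each control array, and the gene did not pass the test.

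REST, the repressor of neuronal genes that shuts off Srrm4 and is in turn spliced by it, and its partners had 4 positive and 3 negative values among 7 measured genes of 8 listed, 0 called and 0 at an unadjusted p under 0.05, with a median of 0.071. Their 2 genes of smallest p were the corepressor Rcor2 at -0.23 (adjusted p = 0.857) and the demethylase Kdm1a at 0.22 (adjusted p = 0.880).

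**Figure D4:**
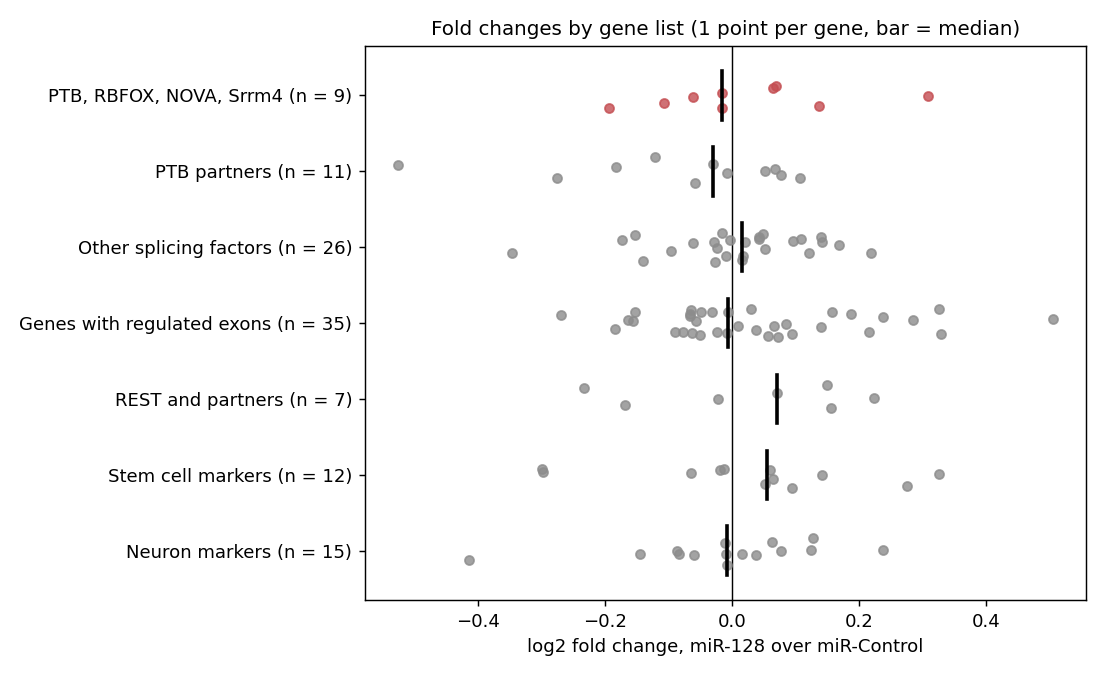
Log2 fold change, miR-128 over miR-Control (x axis), of each gene (1 point) in the 9 splicing regulators, the 4 lists of related genes and the stem cell and neuron markers (y axis); black bars are medians and the vertical scatter within a list carries no value. The medians lie between -0.030 and 0.071, and 0 genes of these lists passed the test.

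Most markers of neural stem cells read high on the arrays and most neuron markers lower. Probe groups differ in how strongly they bind, so these levels are no measure of cell proportions. Nes and Sox2 had control means of 11.06 and 11.94, and the 12 stem cell markers had a median control level of 10.70. Tubb3 and Dcx, early neuronal genes, had 7.04 and 6.98, and the 15 neuron markers had a median of 6.98 and a range of 4.99 to 12.53. The summed log2 level of the neuron list was 109.7 to 110.6 in the controls and 109.2 to 110.7 with miR-128, with 7 values positive and 8 negative. That of the stem cell list was 124.5 to 125.9 in the controls and 124.5 to 126.1 with miR-128. Both ranges overlap between the groups. In such bulk RNA fewer cells of a type and less RNA per cell cannot be told apart.

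Of the other cell types, 7 microglia markers had summed levels of 42.2 to 43.0 in the controls and 42.8 to 42.9 with miR-128, 7 vascular and mesenchymal markers 47.6 to 49.4 and 47.6 to 48.8, and 6 muscle and heart markers 41.2 to 43.1 and 42.0 to 42.7. These groups overlap. The 7 astrocyte markers had 60.4 to 61.1 and 61.2 to 61.6, and the 8 oligodendrocyte lineage markers 67.7 to 68.7 and 69.5 to 70.6, both without overlap and with 0 genes called (3 in each list had an unadjusted p under 0.05, against 7.15% of all rows). The marker Gfap had 6.95 and Aqp4 5.94 in the controls, while Olig1 and Olig2 had 12.28 and 11.21. Control levels over the whole astrocyte list ran from 5.94 to 12.49 (median 8.41), and over the oligodendrocyte lineage list from 6.41 to 12.28 (median 7.85). All 7 microglia markers were higher with miR-128 (median log2 fold change 0.035), with 0 non-overlapping. Vascular and mesenchymal markers had 4 higher and 3 lower, and muscle and heart markers 4 higher and 2 lower, also with 0 non-overlapping. Of the astrocyte markers 5 were higher and 2 lower with miR-128, with 2 non-overlapping in each direction. Of the oligodendrocyte lineage markers 7 were higher and 1 lower, with 3 non-overlapping higher and 0 lower. Over all rows these shares were 6.98% higher and 4.87% lower. The part of these lists in the values of Rbfox2 and Nova1 was not tested.

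Genes whose values over the 6 arrays ran most like those of Ptbp1 and Ptbp2 were found by the root mean square difference of values centred on each gene's mean, over the 20262 other named genes. For Ptbp1 they were Tbx22 (0.016), Rps6ka2 (0.018) and 3930402G23Rik (0.020), with control means of 4.73, 9.10 and 7.21. Tbx22 lay in the lowest quartile of levels, and whether it stands above background is unknown. For Ptbp2 the most alike were Rrp1 (0.013), Golim4 (0.022) and Abcf3 (0.023), with control means of 10.97, 9.57 and 9.17. The measure favours flat genes: the median gene had a root mean square of 0.14 around its own mean, Ptbp2 0.11 and Ptbp1 0.059. Nova1 was the most variable of the 9 at 0.24, and 86.9% of named genes were flatter.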

How the data were processed

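Transcript levels were measured in 6 samples, 3 per group, taken from the sample titles. The deposited values are log2 expression values which the authors produced using the affy package's RMA method (per the submitters' processing notes). RMA corrects background, makes arrays more alike and tends to shrink fold changes. The deposited row values still differed between arrays, with medians of 7.40 to 7.54. Rows are RefSeq transcripts, and of versions, probe grouping and genome build nothing is given in the sources used here. Row names without version numbers were matched to the RefSeq gene table of GRCm38.p6, which named 25343 of 32025 rows for 20263 genes.

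limma 3.58.1 in R 4.3.3 (lmFit, eBayes) was fitted to all rows and all 6 arrays, unpaired, two-sided, with no filter on low values and Benjamini-Hochberg adjustment over all rows at 0.05. The prior had 4.74 degrees of freedom. The procedure was tested on simulated data with independent noise and with log2 fold changes larger than any of the 9 genes. That test does not cover differences of their size. The number of arrays limits the precision. The 9 genes and all lists were chosen with earlier results of these data known. The genes named were the 9, the 2 of smallest p of each list of related genes and those most like Ptbp1 and Ptbp2. The first 2 markers of the stem cell, neuron, astrocyte and oligodendrocyte lineage lists were also named. Microglia, vascular and muscle markers were given only as lists. A gene that this rule names is not reported here. Alternatives were other normalizations, filters, variance models, array weights, a replicate block, the mean of a gene's rows and leaving out each array.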

Additional observations from a re-analysis of the deposited data

How the results depend on the processing

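None of the 9 genes was called under any alternative run, by any limma model or with ordinary statistics. In the 9 settings that can move a fold change (quantile normalization, median centring, array weights and each array left out), 136 of 153 values of the 17 distinct rows kept their direction and 17 turned it. Rows called over the whole table went from 0 to 4 among rows above the median level and to 24 with array weights. With array weights the signs turned to 0.0710 (Rbfox1) and 0.0218 (its second row), and to 0.0354, 0.0750 and 0.0567 in the Rbfox3 rows. Leaving out 1 array gave ranges of -0.0597 to 0.024 for Ptbp1 and -0.0752 to 0.0186 for its row NM_008956, -0.0923 to 0.116 for Rbfox1 and -0.129 to 0.0744 for its row NM_021477. They were -0.138 to 0.0838 for Rbfox3, -0.108 to 0.139 and -0.128 to 0.12 for its other rows, and -0.0141 to 0.126 for Srrm4. The median over the 9 genes ran from -0.0403 to 0.0838. Unadjusted p fell under 0.05 for Nova1 with array weights and without miR-Control replicate 3, and for Rbfox2 with median-centred arrays and with ordinary statistics, and for no other of the 9 genes in any setting. Same-numbered arrays correlated by -0.0028, 0.17 and 0.052 in their deviations from the group means, so the numbers were not taken as pairs. With the replicate number as a replicate block 0 rows were called. Such a block cannot move a fold change when each group holds each number once. Rbfox2 was therefore again at -0.19, and only its adjusted p in limma (0.754) could differ. Srrm4 and Rbfox1 have no value among rows above the median level. No detection p limits what can be said of low rows.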
